A study of Mus musculus with 12 samples.

Results

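The interleukin-6 family was followed as 7 named genes: the cytokines Il6, Lif, Osm and Clcf1, and the receptor chains Il6st, Il6ra and Osmr. They were found among the 41174 probes of the array by accession or gene name, which gave 9 probes for 6 of the 7 genes, out of 32301 genes or transcripts with a probe. No probe was matched to Lif, which was not analysed here. The 6 measured genes are called the members below, and the main probe of each was well above background on all 12 arrays.

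RNA came from bone marrow-derived macrophages (BMDMs), which are bone marrow cells grown with M-CSF for 7 days. The mice were C57BL/6 and 8 weeks old. They were either wild-type (WT) or KpCKO, that is Keap1 flox/flox::LysM-Cre, in which the Cre recombinase is made under a myeloid promoter and deletes Keap1, so that the transcription factor Nrf2 accumulates. Cells of each genotype were left untreated (Con), stimulated with LPS and IFNγ (M1) or stimulated with IL-4 (M2), in each case for 6 h. Each of the 6 groups held 2 independent cultures, with culture 1 from male and culture 2 from female mice, and each culture used 1 mouse per genotype. Levels are log2 signals relative to the 75th percentile of the array, so that 1 unit is a doubling. They cannot be compared between genes, because probes differ in brightness. In bulk RNA, fewer cells of a type and less RNA per cell cannot be told apart.

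Keap1, the target of the deletion, was lower in KpCKO by 1.46 in Con, 1.71 in M1 and 1.81 in M2 on the log2 scale, and Nqo1, a known Nrf2 target, was higher by 3.23, 3.50 and 3.52. Whether the Keap1 probe lies within the deleted part is not stated in the sources used here. The 75th percentile signal was lowest on the WT M1 arrays, at 757 and 548, against 787 to 1166 on the others. Each of the 3 slides carried the 4 arrays of 1 stimulus, so the effect of a stimulus and that of a slide cannot be told apart, while the genotypes shared every slide. The M2 slide was scanned on another day than the other two. All 7 measured macrophage markers were above background in every group (Cd68 had no matched probe). The summed levels of T cell, B cell and mast cell or basophil markers stayed between 0.0359 and 0.566 times the 75th percentile signal, and those of endothelial cells between 0.0657 and 0.784.

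Cytokines of the interleukin-6 family share the signalling receptor chain gp130, the product of Il6st. Interleukin-6 first binds its own chain, the product of Il6ra, which is found on hepatocytes and some leukocytes and can also be shed from the cell surface. Oncostatin M signals through gp130 paired with the product of Osmr or with the LIF receptor. Receptor engagement activates JAK kinases and the transcription factor STAT3, and Socs3 is the feedback inhibitor that limits the signal. Macrophages exposed to bacterial products are a major source of interleukin-6.

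The ligands were examined first. Il6, which drives the acute-phase response of the liver, had levels of -6.39 and -5.39 in WT Con and of -5.65 and -5.66 in KpCKO Con. In M1 the levels were 6.66 and 7.90 in WT and 3.18 and 4.96 in KpCKO. In M2 they were -6.12 and -4.82 in WT and -5.57 and -5.83 in KpCKO. Il6 was thus near the bottom of the scale in all unstimulated and IL-4-treated cells, and the 4 M1 arrays stood far above them, and both WT arrays of that stimulus lay above both KpCKO arrays. The Con intensities of Il6 were 13.6 to 24.5, where the lowest signal called well above background was 7.15 to 8.96, so the size of the rise rests on a dim starting value. M1 raised Il6 by 13.17 ± 0.49 (SE) in WT and by 9.72 ± 0.49 in KpCKO on the log2 scale (adjusted p = 5.19e-06 and 2.06e-05). Each SE comes from the fit over all 12 arrays, with 2 cultures per group. By culture, the rise was 13.06 and 13.28 in WT and 8.83 and 10.62 in KpCKO. In M1, Il6 was 9.26-fold lower in KpCKO than in WT (log2 difference -3.21, 95% CI -4.37 to -2.05, adjusted p = 0.0101), by 3.48 in culture 1 and 2.94 in culture 2 on the log2 scale. Without culture 2 of WT M1 the adjusted p was 0.0608, and without culture 1 of KpCKO M1 it was 0.0621. The genotypes' ranges overlapped in Con and in M2, where the differences were 0.23 (95% CI -0.92 to 1.39) and -0.23 (95% CI -1.38 to 0.93).

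The 250 bases upstream of the Il6 start are shown because Il6 had the largest M1 response of the members. Capitals mark 4 matches, in order AP-1 (TGANTCA), CRE (TGACGT, here on the opposite strand), C/EBP (TTGNNCAA) and kappa B. The sequence is from RefSeq, build GRCm38.p6, plus strand, chr5:30012864-30013113.
Il6: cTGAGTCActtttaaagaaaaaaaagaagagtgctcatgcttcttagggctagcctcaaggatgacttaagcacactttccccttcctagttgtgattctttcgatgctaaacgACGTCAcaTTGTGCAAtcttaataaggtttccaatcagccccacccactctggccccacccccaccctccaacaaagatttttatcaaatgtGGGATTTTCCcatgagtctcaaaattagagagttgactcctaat
Counted from the start, the AP-1 match began at position -249, the CRE match at -136, the C/EBP match at -128 and the kappa B match at -44, and none of these overlapped another. Searched on both strands of 32851 promoter windows of the same length, AP-1 was present in 6.75%, CRE in 6.47%, C/EBP in 5.65% and kappa B in 4.65%. STAT (TTCNNNGAA), ISRE and TATA box (TATAAA) motifs, present in 7.02%, 2.98% and 12.4% of all windows, had no match here. No whole match to the antioxidant response element (ARE, TGAGNNNGC or TGACNNNGC, present in 23.0% of all windows) lay within the window. At its far edge, however, 8 of the 9 bases of an ARE on the opposite strand were present, overlapping the AP-1 match. The remaining base lay beyond the window and was not read here. The Il6 ARE printed in the paper ends in these 8 bases and has the missing base in front of them. The lack of a whole match here therefore comes from where the window was cut. The paper reports a conserved ARE at the summit of an Nrf2 peak near Il6. A match of letters is a description and not a binding site.

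Osm encodes oncostatin M, a cytokine made by activated myeloid cells. Its levels were -0.59 and -0.80 in WT Con, -0.53 and -1.10 in KpCKO Con, -0.08 and 0.82 in WT M1, and -1.39 and -1.18 in KpCKO M1. In M2 they were 0.46 and -0.03 in WT and 0.40 and -0.22 in KpCKO. Both WT M1 arrays stood above all Con arrays, whereas both KpCKO M1 arrays stood below all Con arrays. M1 raised Osm by 1.06 ± 0.36 in WT (adjusted p = 0.0373), while the difference in KpCKO was -0.47 ± 0.36 (adjusted p = 0.315). In M1, Osm was 3.15-fold lower in KpCKO than in WT (log2 difference -1.66, 95% CI -2.52 to -0.80, adjusted p = 0.0289). A second, dimmer Osm probe gave -1.48 and -2.16 for the same difference in cultures 1 and 2, but -0.30 and 0.65 for the M1 response of WT. For the M1 response of KpCKO that probe gave -1.89 and -1.14. With the mean of the probes, the limma M1 response was 0.62 in WT and -0.995 in KpCKO, and neither passed (adjusted p = 0.175 and 0.0567). The rise in WT did not pass without culture 1 or culture 2 of WT Con or without culture 2 of WT M1 (adjusted p = 0.106, 0.139 and 0.210). The genotype difference did not pass without culture 2 of WT M1 or either culture of KpCKO M1 (adjusted p = 0.0903, 0.151 and 0.0581). In M2 against Con, Osm was higher by 0.91 in each genotype with no overlap between the groups, and the adjusted p was 0.137 in WT and 0.167 in KpCKO.

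Clcf1 encodes a cytokine that acts through the ciliary neurotrophic factor receptor. Its levels were -3.75 and -3.59 in WT Con, -3.14 and -3.31 in KpCKO Con, -1.73 and -0.95 in WT M1, and -3.06 and -2.73 in KpCKO M1. In M2 they were -3.49 and -3.17 in WT and -3.04 and -3.29 in KpCKO. The WT M1 arrays thus stood above the other 10, and KpCKO Con stood above WT Con without overlap. M1 raised Clcf1 by 2.33 ± 0.24 in WT (adjusted p = 0.000191) and the difference in KpCKO was 0.32 ± 0.24 (adjusted p = 0.301). In M1 the gene was 2.94-fold lower in KpCKO (log2 difference -1.56, 95% CI -2.13 to -0.99, adjusted p = 0.0108), with an adjusted p of 0.0704 without culture 1 of KpCKO M1. In Con the difference was 0.45 (95% CI -0.13 to 1.02, adjusted p = 0.497).

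**Figure D1:**
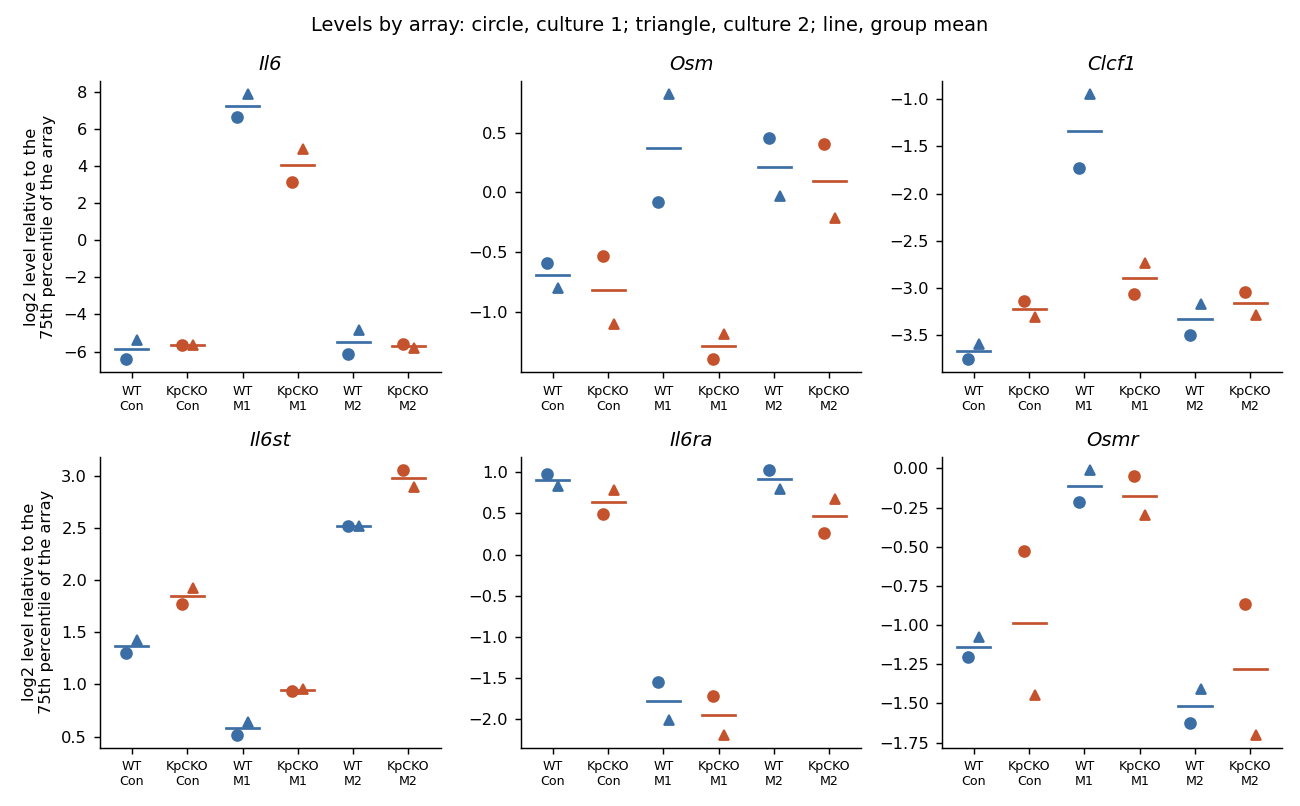
Level of each of the 6 members on the 12 arrays, as log2 signal relative to the 75th percentile of the array, with blue for WT and red for KpCKO. In M1 the KpCKO values of Il6, Osm and Clcf1 lay below the WT values, and the 6 group ranges of Il6st did not overlap.

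The receptor chains changed in other ways. Il6st, which encodes the shared chain gp130, had levels of 1.30 and 1.43 in WT Con and of 1.77 and 1.92 in KpCKO Con. In M1 the levels were 0.52 and 0.64 in WT and 0.94 and 0.96 in KpCKO. In M2 they were 2.52 and 2.52 in WT and 3.06 and 2.90 in KpCKO. The order was KpCKO M2, WT M2, KpCKO Con, WT Con, KpCKO M1 and WT M1, with no overlap between any neighbours. M1 lowered Il6st by 0.78 ± 0.11 in WT and 0.90 ± 0.11 in KpCKO on the log2 scale (adjusted p = 0.000704 and 0.000571). M2 raised it 2.23-fold in WT and 2.19-fold in KpCKO (log2 differences 1.16 and 1.13, adjusted p = 0.00155 and 0.00260). Il6st was the only member that passed the test in both stimulations.

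KpCKO cells had more Il6st RNA signal than WT cells in all 6 pairs of arrays, by 0.32 to 0.53 on the log2 scale. These pairs came from 2 mice per genotype, each sampled under 3 stimuli, so they are not 6 independent pairs. Within one stimulus the difference was 0.48 in Con, 0.37 in M1 and 0.46 in M2, and none of these passed over all genes (adjusted p = 0.0863, 0.0605 and 0.110). Averaged over the 3 stimuli, a contrast added after the values had been seen, the difference was 0.44 (95% CI 0.29 to 0.58, a 1.35-fold higher level, adjusted p = 0.00526). Apart from the culture block, the fit counted the 3 arrays of a mouse as independent. The same contrast called 17.2% of all tested genes, 8.61% higher and 8.54% lower. It kept Il6st past the threshold under all 22 alternatives (adjusted p between 0.00139 and 0.0265). Il6 was the other member called in that contrast (-1.07, adjusted p = 0.0438), although its differences in Con and M2 had opposite signs. The call of Il6 was lost in 11 of the 22 alternatives, among them 9 of the 12 that left out a single array (adjusted p up to 0.112).

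Upstream sequence is shown for both receptor chains that changed in M1 in each genotype. The Il6st window (RefSeq, GRCm38.p6, plus strand, chr13:112463820-112464069) held 1 match, an ARE in capitals that began at position -29, a motif that 23.0% of all windows hold. The Il6ra window (minus strand, chr3:89913197-89913446, printed 5′ to 3′ along the gene) had no match to any of the 8 motifs and has no capitals.
Il6st: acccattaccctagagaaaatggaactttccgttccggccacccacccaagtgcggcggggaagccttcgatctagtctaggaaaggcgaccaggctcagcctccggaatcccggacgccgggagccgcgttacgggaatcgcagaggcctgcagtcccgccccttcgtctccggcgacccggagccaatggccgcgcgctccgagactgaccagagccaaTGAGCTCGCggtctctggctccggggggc
Il6ra: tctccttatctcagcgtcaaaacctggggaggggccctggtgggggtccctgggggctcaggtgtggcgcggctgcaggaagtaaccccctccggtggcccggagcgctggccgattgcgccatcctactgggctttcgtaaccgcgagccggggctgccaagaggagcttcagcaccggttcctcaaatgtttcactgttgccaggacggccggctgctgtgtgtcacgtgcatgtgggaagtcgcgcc
The window of Osmr also had no match. No window was available for Osm and Clcf1, which were not searched.

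**Figure D2:**
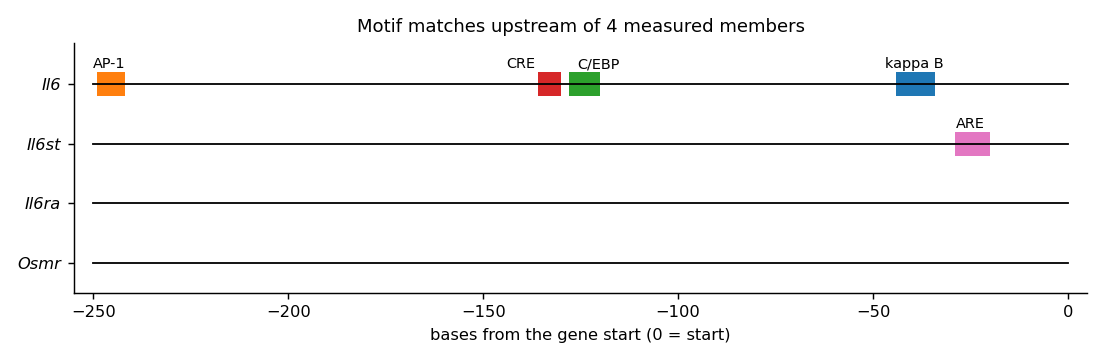
Position of motif matches in the 250 bases before the gene start of 4 members, with each coloured box spanning the matched bases and the horizontal axis in bases from the start. Il6 had 4 matches, Il6st had 1, and Il6ra and Osmr had none, and matches cut by the window edge are not drawn.

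Il6ra encodes the chain that binds interleukin-6 itself. Its levels were 0.97 and 0.84 in WT Con, 0.49 and 0.78 in KpCKO Con, -1.55 and -2.01 in WT M1, and -1.72 and -2.19 in KpCKO M1. In M2 they were 1.03 and 0.80 in WT and 0.26 and 0.67 in KpCKO. The 4 M1 arrays stood below the other 8. M1 lowered Il6ra 6.44-fold in WT and 6.01-fold in KpCKO (log2 differences -2.69 and -2.59, adjusted p = 9.76e-05 and 0.000193), and a second Il6ra probe gave -2.54 and -2.46. In M2 against Con the differences were 0.01 in WT (95% CI -0.56 to 0.58) and -0.17 in KpCKO (95% CI -0.74 to 0.40). Il6ra was lower in KpCKO in all 6 pairs of arrays, by 0.06 to 0.77, again from only 2 mice per genotype. The averaged difference of -0.30 did not pass (95% CI -0.62 to 0.03, adjusted p = 0.186).

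Osmr encodes the signalling partner of gp130 for oncostatin M. Its levels were -1.21 and -1.07 in WT Con, -0.53 and -1.45 in KpCKO Con, -0.22 and -0.01 in WT M1, and -0.05 and -0.30 in KpCKO M1. In M2 they were -1.63 and -1.41 in WT and -0.87 and -1.70 in KpCKO. The 4 M1 arrays stood above the other 8. M1 raised Osmr by 1.03 ± 0.32 in WT (adjusted p = 0.0276), and the difference in KpCKO was 0.81 ± 0.32 (adjusted p = 0.0741). The rise in WT did not pass without culture 1 of WT Con or culture 2 of WT M1 (adjusted p = 0.152 and 0.158), and the KpCKO difference was 1.22 without culture 1 of KpCKO Con (adjusted p = 0.0364).

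The genotype difference of Osmr had opposite signs in the 2 cultures, which also differed in the sex of the mice and in the mice themselves, so these cannot be told apart. The difference was 0.68 and -0.37 in Con, 0.17 and -0.29 in M1, and 0.76 and -0.29 in M2, for cultures 1 and 2. The summed level of 8 stromal cell or fibroblast markers, most of it from Col1a2 and Col1a1, was also higher in culture 1 and lower in culture 2 of KpCKO. In KpCKO that sum was 54.4, 42.1 and 43.9 times the 75th percentile signal in culture 1 and 28.8, 25.0 and 22.8 in culture 2 (Con, M1 and M2), against 33.2 to 41.8 in WT. Of the 8 markers, 3 had this pattern at every stimulus (Col1a1, Col1a2 and Col3a1), while Dcn was lower in KpCKO in both cultures throughout (by 1.39 and 4.02 in Con on the log2 scale). All 8 markers were measured, and Lum was above background on neither array in 5 of the 6 groups. The part of stromal cells in the Osmr values was not tested. A second, dimmer Osmr probe was above background on no WT Con or WT M2 array, and it entered only the alternative with the mean of a gene's probes. There the M1 rise of Osmr in WT was 0.71 and did not pass in limma (adjusted p = 0.382).

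Counted together, 6 of the 6 members passed the test in M1 against Con in WT, 4 higher and 2 lower, where 63.2% of all tested genes were called, 34.5% higher and 28.7% lower. In KpCKO, 3 of the 6 passed (Il6 higher, Il6st and Il6ra lower), with 50.2% of all genes called, 24.8% higher and 25.4% lower. In M2 against Con, 1 member, Il6st, passed in WT and 1, again Il6st, in KpCKO, with 16.8% and 10.2% of all genes called, and 8.62% and 5.68% called higher. The median log2 difference of the members in M1 was 1.05 in WT and -0.07 in KpCKO, against 0.13 and 0.03 over all tested genes. With quantile normalization the WT median over all genes was -0.08 and with normexp background correction it was 0.40, and no called member turned direction under either.

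Between the genotypes, 3 of the 6 members passed in M1, all 3 lower in KpCKO, where 16% of all tested genes were called in either direction and 8.58% were lower. Of all genes called there, 46.4% were higher in KpCKO, and 60.0% with quantile normalization. The 3 were the measured ligands, whereas the receptor chains Il6st, Il6ra and Osmr differed by 0.37, -0.17 and -0.06. The median of the members was -0.86, against -0.09 over all genes. With only the 4 arrays of the groups compared in the fit, none of the 3 passed (adjusted p = 0.159 for each), and with normexp only Il6 did. Il6st joined them as higher in KpCKO with quantile normalization, with genes above background on all 12 arrays only, and with trended and robust variances (adjusted p = 0.0496, 0.0379 and 0.0313). In Con and in M2, 0 of the 6 members passed limma's test, with 2.22% and 1.93% of all genes called. In each of these, 1 member, Il6st, had an unadjusted p below 0.05 in limma, and also in the methods' t-test.

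**Figure D3:**
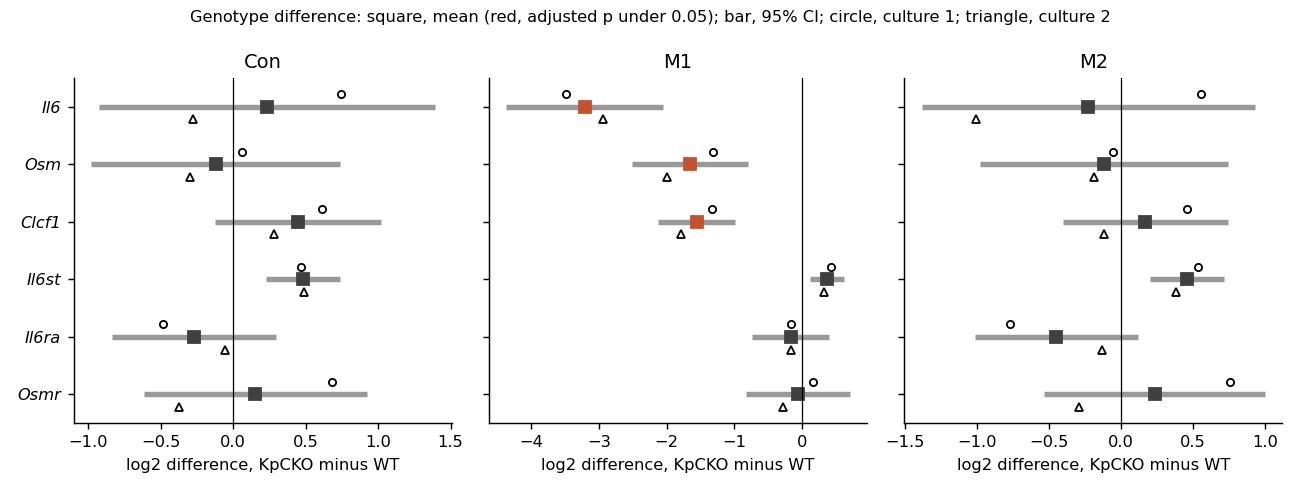
Log2 difference between KpCKO and WT for each member in Con, M1 and M2, with the mean as a square, its 95% CI as a bar and each culture as an open symbol (the horizontal scales differ). The squares of Il6, Osm and Clcf1 in M1 passed the test, and Il6st was above 0 in every culture.

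Whether the response itself differed between genotypes was asked with the interaction of genotype and stimulus. For M1, 0 of the 6 members passed in limma, with 0.0716% of all genes called, while 3 had an unadjusted p below 0.05. These were Il6 (-3.44 ± 0.69, adjusted p = 0.127), Clcf1 (-2.01 ± 0.34, adjusted p = 0.105) and Osm (-1.54 ± 0.51, adjusted p = 0.237). Il6 and Clcf1 rose less in KpCKO in both cultures. The main Osm probe instead changed in opposite directions, by 0.51 and 1.62 in WT and by -0.86 and -0.09 in KpCKO (cultures 1 and 2). Clcf1 and Osm passed without culture 1 of WT M1 (adjusted p = 0.0227 and 0.0403). For the receptor chains the difference of the M1 response was -0.11 for Il6st (95% CI -0.47 to 0.25), 0.10 for Il6ra (95% CI -0.70 to 0.90) and -0.21 for Osmr (95% CI -1.30 to 0.87). For M2, 0 of the 6 members passed and 0 had an unadjusted p below 0.05, with 0.00894% of all genes called.

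**Figure D4:**
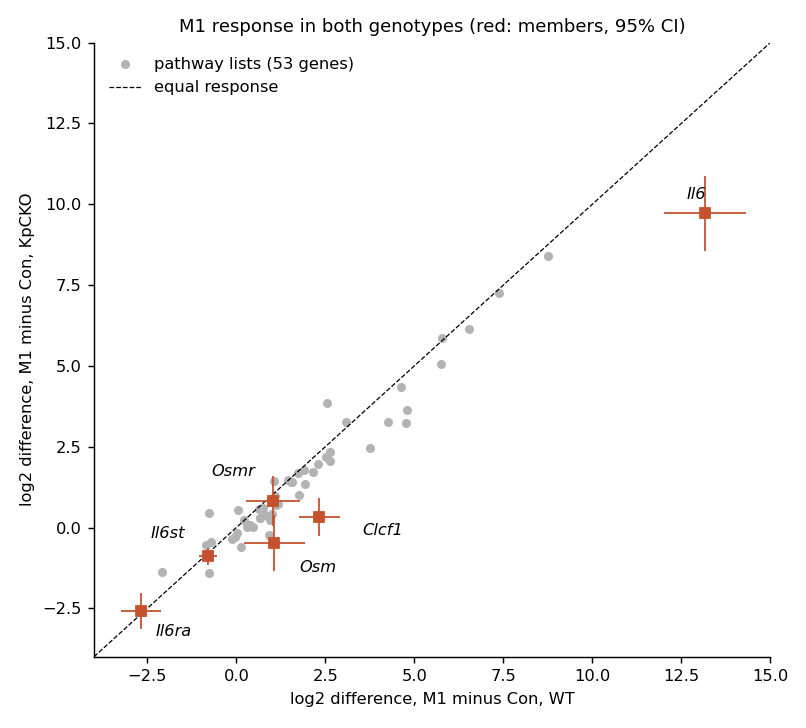
M1 response as log2 difference from Con in WT (horizontal) and KpCKO (vertical) for the 6 members (red squares with 95% CI) and the 53 tested genes of the pathway lists (grey). Il6, Osm and Clcf1 lay below the line of equal response, and Il6st, Il6ra and Osmr lay close to it.

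Summed macrophage markers were also lower in KpCKO, alongside the genotype differences above. The single markers did not all follow the sum. Adgre1, Fcgr1 and Cd14 were lower in KpCKO in both cultures at every stimulus. Mertk and Itgam, however, were higher in both cultures in M2, and Csf1r and Lyz2 differed in direction between the cultures in M1. The sum of 7 markers was 583 and 639 in WT Con against 405 and 469 in KpCKO Con, 833 and 1041 in WT M1 against 560 and 662 in KpCKO M1, and 488 and 545 in WT M2 against 414 and 452 in KpCKO M2. Lyz2 is one of them and is the locus that carries LysM-Cre. Without it the M1 sums were 716 and 983 in WT and 503 and 602 in KpCKO. Summed dendritic cell markers were 1.40 and 2.32 in WT M1 and 1.05 and 1.30 in KpCKO M1, and summed neutrophil markers were 13.2 and 10.1 against 13.6 and 8.97. The part of any of these in the member values was not tested.

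Across the 12 arrays, the levels of Il6 and Il6ra ran in opposite directions (Pearson r = -0.97), and Il6 ran with Clcf1 (r = 0.85) and Osmr (r = 0.85) but not with Osm (r = 0.03). Among 14456 genes, the most alike were Mvp, Ppp6r1 and Adgrb1 for Il6 (r = 0.998, 0.996 and 0.996), Cby2, Has1 and Nebl for Clcf1 (r = 0.972, 0.965 and 0.965), and Usp38, Laptm4a and Pramel12 for Osm (r = 0.926, 0.914 and 0.914). For the receptor chains they were Auh, Aifm2 and Ndufv1 for Il6st (r = 0.987, 0.981 and 0.979), Pold1, Tmem25 and Asb10 for Il6ra (r = 0.995, 0.994 and 0.993), and Mmp17, Csrp2 and Htra1 for Osmr (r = 0.970, 0.969 and 0.966). These are descriptions over arrays that fall into stimulated and other cells and share slides.

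The other genes of the pathway were taken from 7 lists with 56 genes, of which 53 were tested. Il31 was below background, and Adam10 and Nfkb1 had no matched probe. In M1 against Con, 39 rose and 4 fell in WT, and 33 rose and 3 fell in KpCKO. Over all tested genes, 34.5% rose and 28.7% fell in WT, and 24.8% rose and 25.4% fell in KpCKO. Of the 6 brakes, 5 rose and 1, Pias3, fell in each genotype, with Socs1 higher by 8.74 and Socs3 by 6.54 in WT and by 8.41 and 6.15 in KpCKO on the log2 scale. The products of Socs1 and Socs3 block JAK signalling. Among the signal carriers, 9 of 10 rose in WT and 8 of 10 in KpCKO, Jak2 by 4.79 and 3.63 and Stat3 by 2.63 and 2.05. Of the STAT3-induced genes, 10 of 14 rose in WT, such as Icam1, an adhesion molecule, by 5.79 and the kinase gene Pim1 by 4.25. Another 3 fell, Myc (by 2.08), Fos and Il21r. Of the genes that act on Il6 transcription or its mRNA, 8 of 9 rose in WT, with Tnf higher by 7.38 and Arid5a, whose product stabilises Il6 mRNA, higher by 4.61. The median of all 53 was 1.11 in WT and 0.75 in KpCKO.

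Of the other ligands, 5 of 8 rose in M1 in WT and 3 of 8 in KpCKO, against 34.5% and 24.8% of all tested genes. Il27 and Ebi3, which encode the subunits of interleukin-27, rose by 4.76 and 1.93 in WT and by 3.22 and 1.34 in KpCKO. Crlf2, listed with them, in fact encodes a receptor chain for TSLP and rose by 1.17 and 0.73. Of the 5 other receptor chains, 1 passed in WT, Cntfr (0.39). Adam17, a protease that sheds the interleukin-6 receptor, rose by 1.08 and 0.98.

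Between the genotypes in M1, 18 of the 53 list genes were lower in KpCKO in limma and 0 were higher, with 20 lower and 1 higher at an unadjusted p below 0.05. Of all tested genes, 16% were called in that comparison and 8.58% were lower. The lists had been chosen with earlier results of these data known, so the count is a description. The median of the 53 was -0.28, against -0.09 over all tested genes. The 4 ligands were Il27 (-1.40), Ebi3 (-1.10), Ctf1 (-1.05) and Cntf (-0.60). The signal carriers were Jak2 (-1.21), Stat3 (-0.60) and Stat5b (-0.57), and the brakes were Cish (-1.05), Pias3 (-0.67) and Ptpn2 (-0.44). The STAT3-induced genes were Cebpd (-1.44), Hif1a (-0.97), Bcl6 (-0.65) and Mcl1 (-0.52). The genes that act on Il6 were Rel (-1.69), an NF-kappa B subunit gene, Arid5a (-0.80), and Zc3h12a (-0.65) and Zfp36 (-0.57), whose products destabilise cytokine mRNAs. Tnf, Rela and Nfkbiz did not pass. The count was 7 with no replicate block, 10 with normexp, 11 with no filter on dim probes and 0 with only the groups compared. It was 7 without culture 2 of WT M1 and 5 without culture 1 of KpCKO M1.

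**Figure D5:**
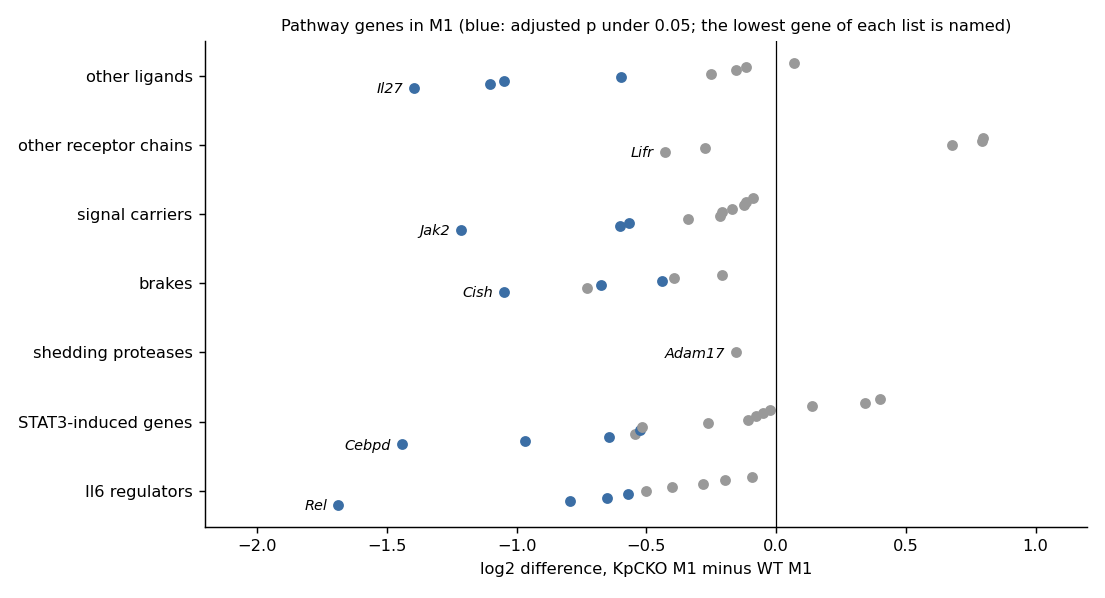
Log2 difference between KpCKO M1 and WT M1 for the 53 tested genes of the 7 pathway lists, with 1 point per gene and blue for an adjusted p below 0.05. The 18 blue points all lay below 0, from -1.69 for Rel to -0.44 for Ptpn2.

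In Con, 1 of the 53 passed, Il21r (-0.88, adjusted p = 0.0498), a receptor gene for interleukin-21. In M2, 0 passed in limma, with 3 higher and 5 lower at an unadjusted p below 0.05. Of all tested genes, 2.22% were called in Con and 1.93% in M2. Averaged over the stimuli, 2 of the 53 were higher, the receptor chains Il11ra1 (0.86) and Il27ra (0.71), and 13 were lower. That contrast called 8.61% of all tested genes higher and 8.54% lower. Il11ra1 has near-identical copies in the mouse genome, and its probe may not tell them apart. In M2 against Con, 14 of the 53 rose and 5 fell in WT, and 11 rose and 3 fell in KpCKO. Over all tested genes, 16.8% were called in WT and 10.2% in KpCKO, with 8.62% and 5.68% called higher. Cish and Socs1 rose by 6.92 and 6.18 in WT and by 7.32 and 5.90 in KpCKO, whereas Socs3 did not pass in M2 in either genotype. Il31ra, which encodes a chain of the interleukin-31 receptor, was not well above background on the WT Con arrays. In WT M2 it was higher in limma (adjusted p = 0.000662). The rise was 33.2-fold when each Con array was given the larger of its Il31ra signal and its lowest signal above background. Il27ra rose by 2.46 in WT M2 (adjusted p = 0.00562), and Stat3 fell by 0.69 in WT and 0.68 in KpCKO.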

How the data were processed

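Each array held 1 RNA sample labelled with Cy3. Per the file headers, spots were read with Agilent Feature Extraction 10.7.3.1, and the deposited intensity values (the processed signal) are background-subtracted. The authors' normalized values, deposited as a log2 table, follow the scanner values with a slope between 0.9996 and 1.0004 on every array and were used as an alternative. Here, log2 processed signals were scaled to the 75th percentile of each array, outlier spots were dropped, and each gene was read from its brightest probe. The 22367 genes that the scanner software flagged as well above background in both cultures of 1 or more groups were tested in limma 3.58.1 (R 4.3.3) over all 6 groups with culture as a block, on 5 residual degrees of freedom. P-values were adjusted by Benjamini-Hochberg over all tested genes, and 0.05 was the threshold. SE and 95% CI come from that fit. No depth applies to arrays, and their number, 2 per group, limits the precision.

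Samples of the same culture number deviated together: across 22084 genes, the correlation of their deviations from the group means was 0.16 to 0.60 over the 15 pairs of groups, and the series states that each culture was 1 experiment. The alternatives were quantile normalization, normexp (offset 50, on the median signals), the authors' values, other filters, a floor, the mean of a gene's probes, no block, mouse as a random block, trended and robust variances, only the groups compared, the methods' t-test and leaving out each array. The limma step was tested on simulated data. Sequences and gene names came from RefSeq tables (GRCm38.p6), which matched 26682 probes by accession and 5 by name.

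All members were named in every comparison, with every pathway gene counted and those past the test given by value. The 3 genes with the highest Pearson correlation with each member were named. Members and lists were chosen with earlier results of these data known.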

Additional observations from a re-analysis of the deposited data

How the results depend on the processing

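No called member turned direction under any alternative run. Of 1032 member results under an alternative, 918 kept their sign and their side of the threshold, 59 changed sign without passing in either setting, 45 lost the call and 10 gained it. The counts of members past the test moved as follows. In M1 the genotype count of 3 became 4 (Il6st, higher) with quantile normalization, with genes above background on all 12 arrays, and with trended and robust variances, 1 with normexp and 0 with only the groups compared or the methods' t-test, and 0 to 3 without single arrays (1 without culture 2 of WT M1, 0 without culture 1 of KpCKO M1). The count of 6 in M1 against Con in WT became 5 with normexp or only the groups compared, 4 with the mean of the probes, 1 with the methods' t-test and 4 to 6 without single arrays, and the count of 3 in KpCKO became 0 with the methods' t-test and 3 to 4 without single arrays. The count of 1 in M2 against Con became 2 in WT (Osm) and 0 in KpCKO with only the groups compared, and 0 in each with the methods' t-test. At the unadjusted threshold of 0.05, the methods' t-test called 5 and 3 members in M1 against Con in WT and KpCKO and 1, Il6st, in each other comparison it was run for, so none of Il6, Osm and Clcf1 between genotypes in M1. Over all tested genes it called 9787 and 6528 in M1 against Con in WT and KpCKO, and 2729 between genotypes in M1. After adjustment it called 2934 genes in M1 against Con in WT, 2 in M2 against Con in WT and 0 in each other comparison. A member count of 0 there held for every gene. The genotype count of 0 in Con became 1 (Il6st) with trended and robust variances. The difference of the M1 response had 0 to 2 calls without single arrays (2 without culture 1 of WT M1). Averaged over the stimuli, the count of 2 became 1 with no filter on dim probes and 1 with no replicate block, and 1 to 3 without single arrays. Without the replicate block, the paired design by culture lost in that contrast the call of Il6 (adjusted p = 0.148), and no other member call. The cause of these moves was not tested. With normexp, 915 genes were called between genotypes in M1, against 3579, and with only the groups compared the fit had fewer arrays. The 2 arrays per group and, for Il6 outside M1, a signal near background limit these values.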
